A study of Homo sapiens with 6 samples.

Results

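Genes that almost every human cell type uses, and that lie along one chromosome arm, can be read together as a marker of that arm's dosage in expression data. The amount of RNA from such a gene tends to follow the number of copies of its arm, with exceptions for genes that are held steady or switched by other means, so the list is read by its median and its spread more than by any 1 gene. The short arm of chromosome 7 (7p) carries many genes of basic cell function, among them that of beta-actin. A set meant to be of this kind was compiled here for 7p by taking 58 listed gene symbols, all placed on 7p, from a table of read counts per gene. How widely each member is used across cell types was not checked, and SCRN1 and JAZF1 had few counts in these cells. All 58 were in the table and all 58 had enough counts to be tested. They were 58 of 285 protein-coding genes of 7p in the table, of which 204 could be tested, and 58 of 52088 entries in all, of which 20746 could be tested. The members were chosen with their fold changes in the comparisons below already known and so were, in effect, selected on those values. The fold changes are therefore given as a description, and no test rests on them.

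The study removed ultra-conserved non-coding elements with paired CRISPR guides and sequenced RNA from the edited cells. The cells were K562, an erythroleukaemia line that carries the BCR-ABL1 fusion and has a near-triploid, rearranged karyotype. There were 3 groups of 2 libraries each: PAX6_Tarzan Knockout (PAX6_Ta KO), PBX3_Claudia Knockout (PBX3_Cl KO) and Control. The knockout cells had been transfected with a plasmid carrying Cas9 and the guide pair, selected with puromycin and picked as single clones, whereas the genotype of the Control cells was given as WT and neither a guide nor a selection step was named for them. A clone therefore differs from Control in its history as well as in the deleted element, and these cannot be told apart. The labels do not say whether the 2 replicates of a group were separate cultures or separate clones. Both replicates of a knockout carry the same number in the names of their count columns, which may stand for a single clone. Every p-value therefore reflects the scatter of these particular libraries, and that scatter may be purely technical. The number of DNA copies of 7p was not measured in these files.

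Neither deleted element lies on chromosome 7. The guides are shown because they are what set the clones apart by design. Each is written with the 20-nt guide in lower case and the adjacent protospacer-adjacent motif (PAM), which Cas9 needs to cut, in capitals, and each is named by the promoter that drove it. On GRCh37, the PAX6_Ta U6 guide matched chr11:31809917-31809939 on the minus strand and the H1 guide matched chr11:31811316-31811338 on the plus strand, either side of an element of 434 bp. The PBX3_Cl U6 guide matched chr9:128456987-128457009 on the plus strand and the H1 guide matched chr9:128457970-128457992 on the minus strand, either side of an element of 222 bp.
PAX6_Ta U6 guide: gctttctgtgcggttgtggaTGG
PAX6_Ta H1 guide: caagtccattccttccccagTGG
PBX3_Cl U6 guide: ctcagtactgcaaagactgtGGG
PBX3_Cl H1 guide: gcttgtacagttaagcatgaTGG
On 7p, no site followed by an NGG motif matched any of the 4 guides with 3 mismatches or fewer. With 4 mismatches there were 15 sites for the PAX6_Ta U6 guide, 8 for the PAX6_Ta H1 guide, 6 for the PBX3_Cl U6 guide and 1 for the PBX3_Cl H1 guide. A match of this kind is a description of letters, and cutting was not measured. The edits themselves were not checked here, since the counts are summed over whole genes.

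The 6 libraries held between 45912044 and 60908470 counts. Across all tested entries, log2 values of replicates correlated with r between 0.981 and 0.99, and libraries of different groups with r between 0.945 and 0.961. All 12 erythroid markers of K562 were detected, with summed levels of 9530 to 11198 CPM (counts scaled to a fixed library total) in PAX6_Ta KO, 8040 to 9490 in PBX3_Cl KO and 6168 to 7223 in Control. Summed fibroblast markers, mostly COL1A2 in PAX6_Ta KO and Control, reached 23.8 to 24.1 CPM in PAX6_Ta KO, 3.7 to 4.06 in PBX3_Cl KO and 49.9 to 135 in Control, with LUM at 0 in every library. Other genes of that list went the other way. COL1A1 had 4.66 and 3.93 CPM in PAX6_Ta KO, against 0.133 and 0.139 CPM in Control. COL3A1 had 0.458 and 0.304 CPM in PAX6_Ta KO and 1.25 and 0.851 CPM in PBX3_Cl KO, against 0.0999 and 0.178 CPM in Control. Summed lymphoid markers stayed between 5.24 and 10.8 CPM in all 6 libraries, with MS4A1 at 0. Summed epithelial markers, mostly KRT8, KRT19 and KRT18, were 1300 to 2024 CPM in PAX6_Ta KO, 652 to 1121 in PBX3_Cl KO and 722 to 958 in Control, with KRT5 at 0. EPCAM, of the same list, fell in PAX6_Ta KO, with 3.66 and 2.13 CPM in PAX6_Ta KO and 26.8 and 21.9 CPM in PBX3_Cl KO, against 42.3 and 45.5 CPM in Control. The part of these differences in the 7p values was not tested. In bulk RNA, a smaller number of cells of one type and less RNA per cell cannot be told apart.

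Taken over the whole list, the 58 genes stood above Control in both knockouts by nearly the same amount. Each library was first set against the mean of the 2 Control libraries, gene by gene, in CPM scaled by the trimmed mean of M-values (TMM). The median of the 58 genes was then 0.60 and 0.51 on the log2 scale in the PAX6_Ta KO libraries, 0.62 and 0.48 in the PBX3_Cl KO libraries, and 0.07 and -0.07 in the Control libraries. All 4 knockout libraries were above both Control libraries, and the replicates of each knockout overlapped with those of the other. Between 53 and 57 of the 58 genes were higher than the Control mean in any one knockout library. The 58 genes together took 0.977% and 1.02% of all counts in PAX6_Ta KO, 0.926% and 0.97% in PBX3_Cl KO, and 0.691% and 0.725% in Control. These shares did not overlap between either knockout and Control.

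**Figure D1:**
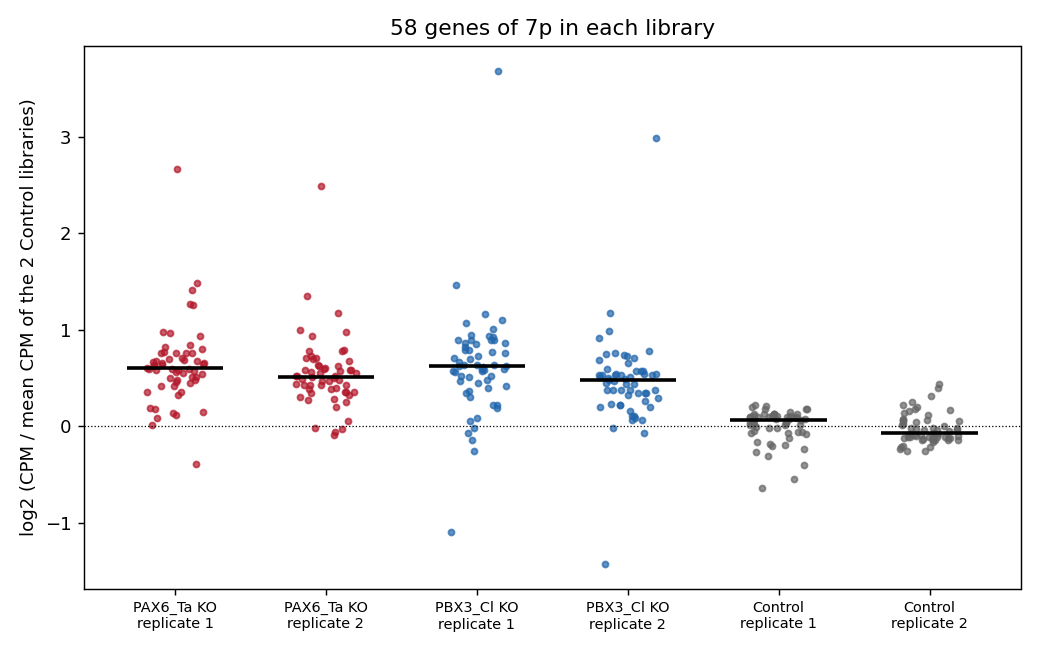
Level of each of the 58 genes of 7p in each library (points), as log2 of its CPM over the mean CPM of the 2 Control libraries; black bars are medians. The medians of the 4 knockout libraries lie between 0.48 and 0.62, above those of Control at 0.07 and -0.07.

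In the fitted comparison of PAX6_Ta KO with Control, the median log2 fold change of the 58 genes was 0.55, a 1.47-fold difference, with quartiles at 0.46 and 0.69 and a standard deviation between genes of 0.38. Of the 58, 56 lay above 0, and 44 (75.9%) lay within 0.25 of the median. The median standard error of a single gene was 0.21. The distance between the quartiles, a different measure, was 0.23. In PBX3_Cl KO against Control the median was 0.56, again 1.47-fold, with quartiles at 0.38 and 0.68 and a standard deviation of 0.49. Here 57 of 58 genes lay above 0 and 41 (70.7%) within 0.25 of the median. Over all 20746 tested entries the medians were -0.02 and -0.01, and 48.2% and 49.0% of entries lay above 0. These 2 comparisons share the Control libraries. In PAX6_Ta KO against PBX3_Cl KO, which does not use Control, the 58 genes had a median of 0.00 with quartiles at -0.15 and 0.16, and 32 lay above 0, where 49.5% of all entries did.

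Fewer genes passed the test singly. By edgeR's quasi-likelihood test with a Benjamini-Hochberg adjusted p below 0.05 over all tested entries, 13 of the 58 genes rose in PAX6_Ta KO and 0 fell, where 7.21% of all tested entries rose and 4.21% fell. At an unadjusted p below 0.05 the counts were 38 higher, where 12.6% of all entries were, and 0 lower, where 10.1% were, and DESeq2 called 14 higher, where 7.65% of all entries were, and 0 lower. In PBX3_Cl KO, 10 rose and 1 fell, where 6.28% of all tested entries rose and 2.69% fell. At an unadjusted p below 0.05 the counts were 36 higher, where 12.6% of all entries were, and 1 lower, where 7.07% were. The members were chosen with these comparisons known, so nothing is read from the counts. The genes called higher include SCRN1 in both knockouts, which passed the filter on low counts only through the knockout libraries. With the replicate number as a block, 33 genes were called higher in PAX6_Ta KO, where 9.78% of all entries were, and 30 in PBX3_Cl KO, where 9.26% were. The counts moved with single libraries. In the PAX6_Ta KO comparison 4 genes were called higher without that knockout's replicate 1 and 8 without its replicate 2, and 24 and 25 when PBX3_Cl KO replicate 1 or 2 was dropped from the shared fit. Dropping Control replicate 1 left 7 there, and dropping Control replicate 2 left 5. In the PBX3_Cl KO comparison 6 were called higher without that knockout's replicate 1 and 18 without its replicate 2, and 5 and 2 when Control replicate 1 or 2 was dropped. The share of all entries called higher moved too, between 4.21% and 8.81% in the PAX6_Ta KO comparison and between 3.89% and 6.09% in the PBX3_Cl KO comparison. The medians moved little under the same omissions, to between 0.49 and 0.61 and to between 0.44 and 0.63.

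Without a model, 51 of the 58 genes had both PAX6_Ta KO libraries above both Control libraries in CPM, where 27.0% of all tested entries did, and 0 had both below, where 28.0% did. For PBX3_Cl KO, 47 genes had both libraries above both Control libraries, where 23.5% of all entries did, and 1 had both below, where 20.6% did. Between the knockouts, 11 genes had both PAX6_Ta KO libraries above both PBX3_Cl KO libraries, where 24.1% of entries did, and 11 had both below, where 25.6% did.

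**Figure D2:**
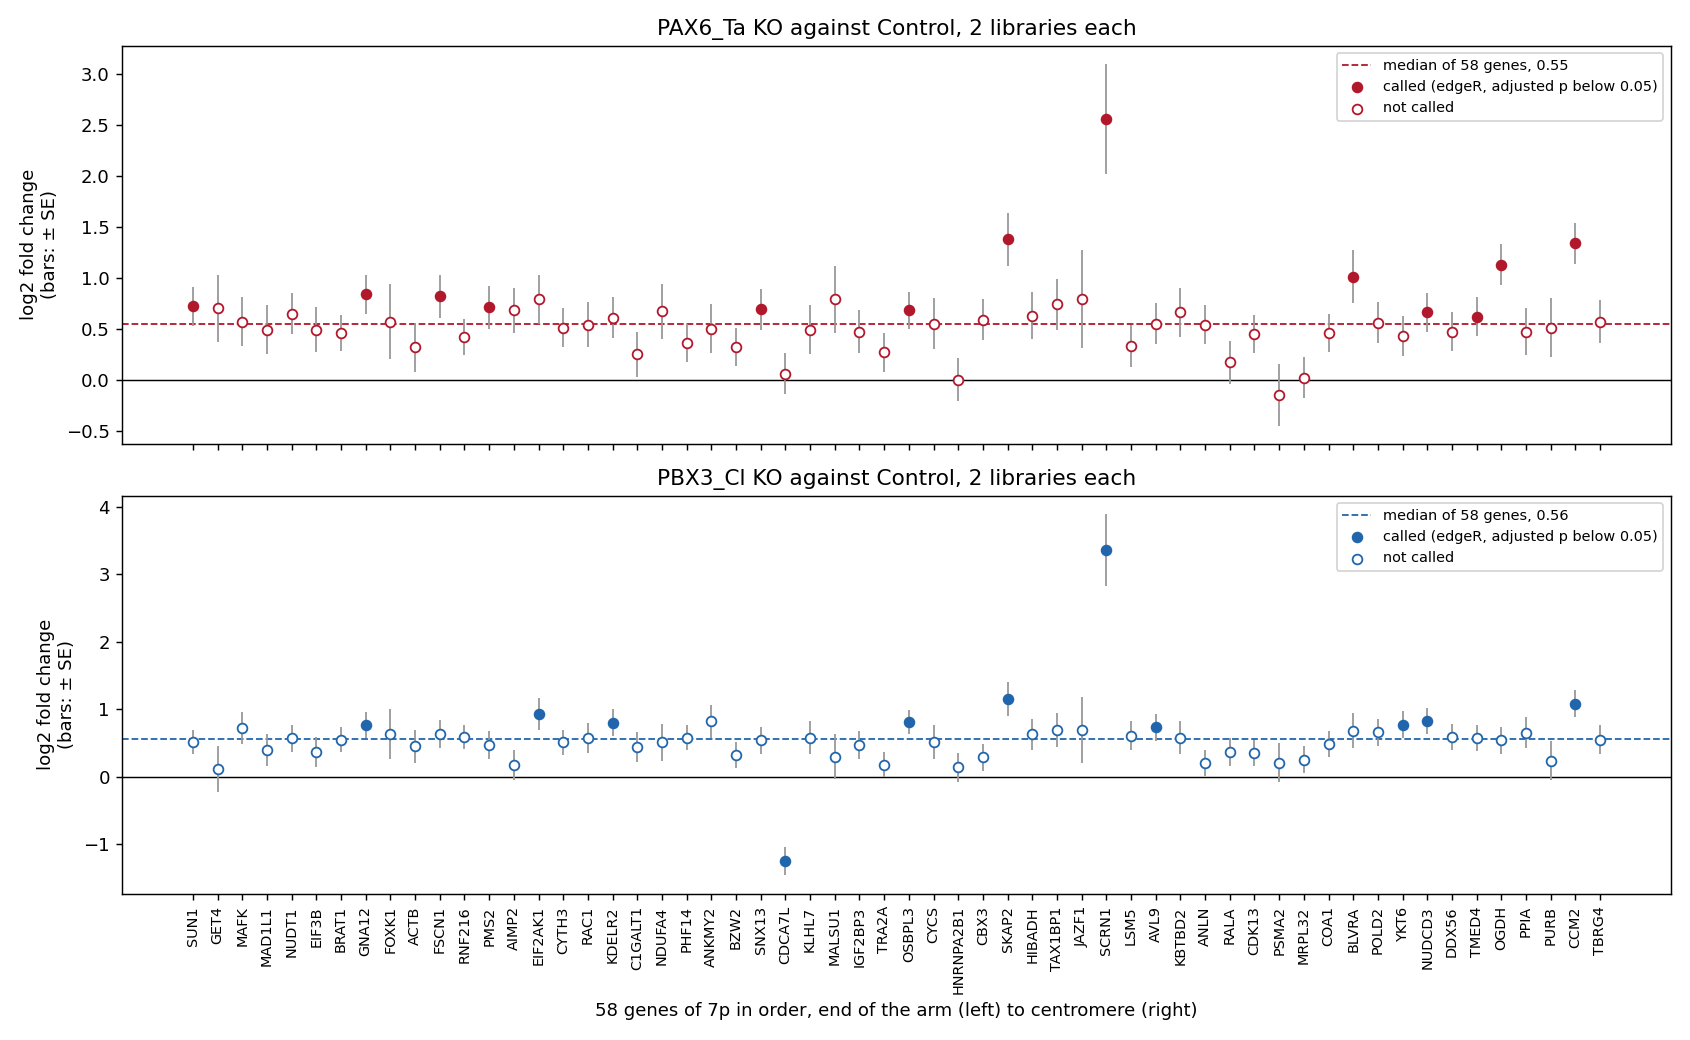
Log2 fold change against Control of the 58 genes, in their order along 7p, in PAX6_Ta KO (upper panel) and PBX3_Cl KO (lower panel); bars are standard errors, filled points are genes called by edgeR, and dashed lines are the medians of 0.55 and 0.56. Most genes sit close to the dashed line along the whole arm, with SCRN1 above it in both panels and CDCA7L below 0 in the lower one.

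The genes follow by what their products do, beginning with those of the actin cytoskeleton and cell shape. All 10 genes of that group lay above 0 in both knockouts, with medians of 0.63 in PAX6_Ta KO and 0.55 in PBX3_Cl KO. Of them, 5 and 3 were called higher, where 7.21% and 6.28% of all tested entries were. The role groups were chosen with earlier results known, so nothing is read from such counts, here and below. CCM2, a scaffold protein that is mutated in inherited cavernous malformations of brain vessels, had 63.3 and 50.8 CPM in PAX6_Ta KO and 50.6 and 44.9 CPM in PBX3_Cl KO, against 20.7 and 24.4 CPM in Control. No knockout library overlapped with Control. CCM2 rose by 1.34 ± 0.20 in PAX6_Ta KO and by 1.08 ± 0.20 in PBX3_Cl KO. These values are log2 fold change ± SE with n = 2 libraries a group, here and below. Both were called in every one of the 16 fits tried, which reuse the same 6 libraries. The members were also chosen with these values known, so a tally of fits, here and below, describes the processing and is no support. SKAP2, an adaptor of Src-family kinases, had 39.4 and 37.7 CPM in PAX6_Ta KO and 41 and 25 CPM in PBX3_Cl KO, against 17 and 12.6 CPM in Control. It rose by 1.38 ± 0.26 and by 1.15 ± 0.25, although its 2 PBX3_Cl KO libraries stood far apart. FSCN1, which encodes the actin-bundling protein fascin, had 889 and 854 CPM in PAX6_Ta KO and 734 and 799 CPM in PBX3_Cl KO, against 504 and 485 CPM in Control. Its rise of 0.82 ± 0.21 passed the test in PAX6_Ta KO, as in 12 of the 16 fits, and the 0.63 ± 0.21 of PBX3_Cl KO did not. GNA12, a G protein alpha subunit, rose in both, by 0.84 ± 0.19 and 0.77 ± 0.19. SUN1, which links the nuclear envelope to the cytoskeleton, rose by 0.72 ± 0.19 in PAX6_Ta KO and was called there in 12 of the 16 fits. The small GTPase RAC1 stood at 0.54 ± 0.22 and 0.57 ± 0.22, near both medians and not called. RALA, another small GTPase, had the lowest value of the group in PAX6_Ta KO at 0.17 ± 0.21, and its libraries overlapped with Control there.

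ACTB (beta-actin) and, among the protein-folding genes, PPIA (cyclophilin A) are used widely as reference genes to scale other measurements. ACTB had 1662 and 1583 CPM in PAX6_Ta KO and 1679 and 1883 CPM in PBX3_Cl KO, against 1149 and 1456 CPM in Control. PPIA had 982 and 833 CPM in PAX6_Ta KO and 1115 and 936 CPM in PBX3_Cl KO, against 702 and 609 CPM in Control. Both were above Control in all 4 knockout libraries, with log2 fold changes of 0.32 ± 0.24 and 0.45 ± 0.24 for ACTB and 0.47 ± 0.23 and 0.65 ± 0.23 for PPIA, none of them called. Divided by GAPDH, a reference gene on another chromosome, the counts of PPIA gave ratios of 0.681 and 0.738 in PAX6_Ta KO and 0.673 and 0.667 in PBX3_Cl KO, against 0.425 and 0.497 in Control, without overlap. For ACTB the ratios were 1.15 and 1.40 in PAX6_Ta KO and 1.01 and 1.34 in PBX3_Cl KO, against 0.696 and 1.19 in Control, which overlapped. Divided by TBP, another reference gene, PPIA gave 13.5 and 13.1 in PAX6_Ta KO and 19.5 and 17.5 in PBX3_Cl KO, against 12.5 and 11.6 in Control. ACTB over TBP gave 22.9 and 24.9 in PAX6_Ta KO and 29.4 and 35.3 in PBX3_Cl KO, against 20.4 and 27.7 in Control. With TBP the ratios of PAX6_Ta KO were closer to Control for PPIA and overlapped with it for ACTB, while those of PBX3_Cl KO lay above Control for both. TBP itself stood at 0.32 ± 0.18 in PAX6_Ta KO and 0.02 ± 0.18 in PBX3_Cl KO, and GAPDH at -0.16 ± 0.25 and 0.09 ± 0.25. The size of the difference thus depended on the reference gene. The 12 reference genes outside 7p that were measured beside ACTB and PPIA had medians of -0.12 and 0.11, between -0.28 and 0.55 in PAX6_Ta KO and between -0.14 and 0.44 in PBX3_Cl KO. In the annotation 89 pseudogenes are named after PPIA and 12 after ACTB, and reads shared with such copies may have been split or dropped in the counting. Leaving both genes out changed neither median by more than 0.01.

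The 8 mitochondrial genes had medians of 0.60 and 0.52 and all lay above 0 in both knockouts. OGDH, the first enzyme of the 2-oxoglutarate dehydrogenase complex of the citric acid cycle, had 252 and 210 CPM in PAX6_Ta KO and 163 and 144 CPM in PBX3_Cl KO, against 112 and 98.9 CPM in Control. The 3 groups did not overlap, with PAX6_Ta KO highest. OGDH rose by 1.13 ± 0.20 in PAX6_Ta KO, under every fit, while the 0.54 ± 0.20 of PBX3_Cl KO was not called. The difference between the knockouts, 0.59 ± 0.20, was not called either. MALSU1, which takes part in the assembly of the mitochondrial ribosome, stood at 0.79 ± 0.33 and 0.30 ± 0.33. TBRG4, which acts on mitochondrial RNA, stood at 0.57 ± 0.21 and 0.55 ± 0.21, on the medians of the list. MRPL32, a subunit of the large mitochondrial ribosome, had 59.2 and 51.4 CPM in PAX6_Ta KO and 72.7 and 57.2 CPM in PBX3_Cl KO, against 56.3 and 52.7 CPM in Control. It was the lowest of the group in both comparisons, at 0.02 ± 0.20 and 0.25 ± 0.20.

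Genes for protein synthesis and folding had medians of 0.49 and 0.37 over 7 genes. EIF2AK1, the haem-regulated kinase that lowers translation in red cell precursors when haem is short, had 462 and 352 CPM in PAX6_Ta KO and 495 and 404 CPM in PBX3_Cl KO, against 273 and 197 CPM in Control. All 4 knockout libraries were above both Control libraries. It rose by 0.93 ± 0.24 in PBX3_Cl KO and stood at 0.79 ± 0.24 in PAX6_Ta KO, not called in the fit reported. The fits differed here, with 11 of the 16 calling EIF2AK1 higher in PAX6_Ta KO, which is no support. NUDCD3, a co-chaperone, rose in both, by 0.66 ± 0.19 and 0.83 ± 0.19, and was called in 11 and 14 of the 16 fits. EIF3B, a subunit of initiation factor 3, stood at 0.49 ± 0.22 and 0.37 ± 0.22. AIMP2, a scaffold of the aminoacyl-tRNA synthetase complex, stood at 0.68 ± 0.22 in PAX6_Ta KO and 0.18 ± 0.22 in PBX3_Cl KO, a difference between the knockouts of 0.50 ± 0.22 that was not called. PSMA2, an alpha subunit of the proteasome core, was the only gene of the list besides HNRNPA2B1 that did not lie above 0 in PAX6_Ta KO, and HNRNPA2B1 was at 0.02 there with RLE size factors. PSMA2 had 4.27 and 5.81 CPM in PAX6_Ta KO and 5.83 and 7.13 CPM in PBX3_Cl KO, against 4.76 and 6.43 CPM in Control, which overlapped in both comparisons.

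The 5 RNA-binding genes had the lowest median of the role groups in PAX6_Ta KO, 0.33, with 0.47 in PBX3_Cl KO, and none was called. HNRNPA2B1, an abundant RNA-binding protein that guides splicing, had 663 and 652 CPM in PAX6_Ta KO and 766 and 690 CPM in PBX3_Cl KO, against 705 and 612 CPM in Control. The groups overlapped, and its log2 fold changes were -0.00 ± 0.21 and 0.14 ± 0.21. LSM5, part of the ring that binds U6 RNA, stood at 0.33 ± 0.21 and 0.61 ± 0.21. The splicing regulator TRA2A stood at 0.27 ± 0.19 and 0.18 ± 0.19.

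Of 8 genes of membrane traffic and sorting, all lay above 0 in both knockouts, with medians of 0.65 and 0.71. Among them 3 and 4 were called higher, where 7.21% and 6.28% of all tested entries were. OSBPL3, a lipid transfer protein, rose in both, by 0.68 ± 0.18 and 0.81 ± 0.18, and was called in 12 and 14 of the 16 fits. SNX13, a sorting nexin, rose by 0.69 ± 0.20 and TMED4, a cargo receptor, by 0.62 ± 0.19 in PAX6_Ta KO. There SNX13 was called in 10 of the 16 fits and TMED4 in 9. YKT6, a SNARE of the secretory pathway, rose by 0.77 ± 0.20 in PBX3_Cl KO, as did the KDEL receptor KDELR2 by 0.80 ± 0.20 and AVL9 by 0.73 ± 0.20. In that comparison YKT6 and KDELR2 were each called in 13 of the 16 fits and AVL9 in 9. TAX1BP1, an autophagy receptor, was not called at 0.74 ± 0.25 and 0.69 ± 0.25. GET4, which hands tail-anchored proteins on towards the membrane, stood at 0.70 ± 0.33 and 0.11 ± 0.34. It rested on 91 to 190 counts a library and shares annotated sequence on the same strand with SUN1, which had 4168 to 7303.

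The 5 genes of genome maintenance and cell division had medians of 0.56 and 0.55 and a narrow range, from 0.46 to 0.71 in PAX6_Ta KO and from 0.40 to 0.66 in PBX3_Cl KO. The mismatch repair gene PMS2 rose by 0.71 ± 0.21 in PAX6_Ta KO, called in 10 of the 16 fits, and 11 pseudogenes are named after it. POLD2, a subunit of DNA polymerase delta, had 299 and 266 CPM in PAX6_Ta KO and 318 and 290 CPM in PBX3_Cl KO, against 207 and 177 CPM in Control. Its libraries did not overlap with Control, and it was not called at 0.56 ± 0.20 and 0.66 ± 0.20. NUDT1, which clears oxidised nucleotides, stood at 0.65 ± 0.20 and 0.57 ± 0.20. The 3 ubiquitin ligase genes, RNF216, KLHL7 and KBTBD2, lay between 0.42 and 0.66 in PAX6_Ta KO and between 0.58 and 0.59 in PBX3_Cl KO, and none was called.

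Among 8 genes of transcription and chromatin, medians were 0.54 and 0.46. CDCA7L, a MYC-interacting nuclear protein, had 35.2 and 31.1 CPM in PAX6_Ta KO and 14.8 and 11.8 CPM in PBX3_Cl KO, against 32.5 and 30.9 CPM in Control. The PBX3_Cl KO libraries were below all 4 others, and the PAX6_Ta KO libraries overlapped with Control. CDCA7L fell by 1.25 on the log2 scale (SE 0.21) in PBX3_Cl KO, the 1 gene of the list that fell, and stood at 0.06 ± 0.20 in PAX6_Ta KO. It was also the 1 gene called between the knockouts, with a log2 fold change of 1.32 ± 0.21 for PAX6_Ta KO over PBX3_Cl KO, where 5.26% of all tested entries were called higher and 6.71% lower, and it was called in all 16 fits. CDCA7L overlaps DNAH11 on the opposite strand, and reads of such a pair cannot be told apart without strand. CBX3, heterochromatin protein 1 gamma, stood at 0.59 ± 0.20 and 0.29 ± 0.20. JAZF1, which had 0.666 and 0.835 CPM in PAX6_Ta KO and 0.771 and 0.633 CPM in PBX3_Cl KO against 0.300 and 0.574 CPM in Control, was too low for a difference of this size to be detectable, at 0.79 ± 0.48 and 0.69 ± 0.49.

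The remaining 4 genes, enzymes and proteins of other kinds, all lay above 0 in both knockouts, with medians of 0.76 and 0.75. SCRN1 (secernin 1) was the gene farthest above the median in both knockouts. Its PAX6_Ta KO libraries held 36 and 35 counts (0.749 and 0.664 CPM) and its PBX3_Cl KO libraries 67 and 43 (1.52 and 0.938 CPM), against 7 and 6 (0.117 and 0.119 CPM) for Control. It rose by 2.56 ± 0.54 and 3.36 ± 0.53, in each of the 15 fits in which it passed the filter on low counts. Its Control counts were too low to pass the filter of the fit reported, so it was kept through the knockout libraries where it was high. For SCRN1 too, the number of fits that called it is therefore no support. BLVRA, biliverdin reductase, which makes bilirubin from a product of haem, had 48.5 and 33.0 CPM in PAX6_Ta KO and 38.6 and 26.2 CPM in PBX3_Cl KO, against 23.5 and 16.9 CPM in Control. It rose by 1.01 ± 0.26 in PAX6_Ta KO, and the 0.68 ± 0.26 of PBX3_Cl KO was not called. ANKMY2, an ankyrin-repeat protein, stood at 0.50 ± 0.24 and 0.82 ± 0.24. Without SCRN1 and CDCA7L the medians of the list stayed at 0.55 and 0.56.

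The values showed little relation to the position of the genes along the arm. From the tip of 7p, the 19 genes from SUN1 to C1GALT1 (chr7:856252-7288247, GRCh37) had medians of 0.57 in PAX6_Ta KO and 0.55 in PBX3_Cl KO. The 22 genes from NDUFA4 to KBTBD2 (chr7:10971570-32933743) had 0.57 and 0.58, and the 17 from ANLN to TBRG4 (chr7:36429430-45151646) had 0.51 and 0.55. Across the 58 genes, which share libraries and are not independent, the correlation of fold change with position was 0.02 and 0.07, with annotated exon length -0.07 and 0.06, and with log mean CPM -0.34 and -0.24 (Pearson's r). The rank correlations with log mean CPM were -0.17 and 0.05.

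Some members start next to each other in opposite directions, and 5 such pairs had starts within 1000 bp. PSMA2 and MRPL32, whose starts are 191 bp apart, were both near the bottom of the list, at -0.15 and 0.02 in PAX6_Ta KO and at 0.21 and 0.25 in PBX3_Cl KO. LSM5 and AVL9, 143 bp apart, stood at 0.33 and 0.55 in PAX6_Ta KO and at 0.61 and 0.73 in PBX3_Cl KO. PMS2 and AIMP2, 125 bp apart, stood at 0.71 and 0.68 in PAX6_Ta KO and at 0.47 and 0.18 in PBX3_Cl KO. ANKMY2 and BZW2, 314 bp apart, stood at 0.50 and 0.32 in PAX6_Ta KO and at 0.82 and 0.32 in PBX3_Cl KO. HNRNPA2B1 and CBX3, 367 bp apart, stood at -0.00 and 0.59 in PAX6_Ta KO and at 0.14 and 0.29 in PBX3_Cl KO, so the partners of this pair were apart in PAX6_Ta KO. Of all 58 genes, 20 overlap another protein-coding gene in the annotation, 15 of them on the opposite strand.

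The stretch between the starts of PSMA2 and MRPL32 (chr7:42971785-42971974, GRCh37, plus strand) is shown because both genes lay near the bottom of the list. Beside it stand 250 bases upstream of the RefSeq starts of CCM2 (chr7:45039095-45039344, plus strand) and SCRN1 (chr7:30029418-30029667, minus strand), called higher in both knockouts, and of CDCA7L (chr7:21985518-21985767, minus strand), called lower in PBX3_Cl KO. The upstream windows are from RefSeq on GRCh38.p14 and were placed on GRCh37 by an exact match. In the GENCODE annotation used for gene positions, CCM2 and SCRN1 start farther out, at 45039074 and 30029905, so their windows lie inside the annotated genes. On either strand, capitals mark the TATA box letters TATAAA and the CCAAT box. They likewise mark GGGCGG as a GC box and, as an ETS site, the letters CGGAAG.
PSMA2 to MRPL32: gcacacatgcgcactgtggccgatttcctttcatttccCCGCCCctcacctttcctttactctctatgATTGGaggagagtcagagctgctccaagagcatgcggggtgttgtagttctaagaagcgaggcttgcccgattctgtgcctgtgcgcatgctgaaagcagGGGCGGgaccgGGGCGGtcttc
CCM2: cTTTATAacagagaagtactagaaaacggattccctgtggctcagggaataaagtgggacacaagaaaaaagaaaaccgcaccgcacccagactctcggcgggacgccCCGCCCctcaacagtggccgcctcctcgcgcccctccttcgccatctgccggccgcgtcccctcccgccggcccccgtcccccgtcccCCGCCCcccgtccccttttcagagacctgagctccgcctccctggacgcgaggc
SCRN1: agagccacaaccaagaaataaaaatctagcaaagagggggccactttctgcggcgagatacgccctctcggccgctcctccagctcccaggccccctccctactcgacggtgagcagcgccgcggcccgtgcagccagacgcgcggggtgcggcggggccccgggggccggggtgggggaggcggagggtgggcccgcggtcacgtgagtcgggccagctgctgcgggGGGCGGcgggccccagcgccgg
CDCA7L: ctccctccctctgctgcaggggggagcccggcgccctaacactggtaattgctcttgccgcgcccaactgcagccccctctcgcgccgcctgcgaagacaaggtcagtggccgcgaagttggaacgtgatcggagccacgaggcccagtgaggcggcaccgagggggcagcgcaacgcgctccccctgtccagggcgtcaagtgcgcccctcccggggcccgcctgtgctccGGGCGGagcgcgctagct
The stretch between PSMA2 and MRPL32 held 3 GC boxes and 1 CCAAT box, the CCM2 window 2 GC boxes and 1 TATA match far from the RefSeq start, and the SCRN1 and CDCA7L windows 1 GC box each. Promoter windows of 300 bases were at hand for 43 of the 58 genes. Of these 43, 67.4% held a GC box (44.6% of 27303 promoters of all genes), 41.9% an ETS site (19.9%), 34.9% a CCAAT box (35.7%) and 4.65% a TATA box (12.0%). The 27303 promoters were not matched to the list for expression or gene type, and whether the shares are particular to it was not tested. GGGCGG and CGGAAG can share the letters CGG, and a match is a description of letters only.

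The other protein-coding genes of 7p that could be tested, 146 in number, had medians close to those of the list, 0.70 in PAX6_Ta KO, 0.65 in PBX3_Cl KO and -0.02 between the knockouts. They were much more scattered. The range between their quartiles was 0.68 wide in PAX6_Ta KO against 0.23 in the 58 genes, and 0.63 wide in PBX3_Cl KO against 0.30. The 58 were chosen with these values known, so their narrower range is a description only. For the 78 of them with a mean of at least 10 CPM the medians were 0.67 and 0.67 and the widths 0.46 and 0.37, while the 68 below that level had widths of 1.92 and 1.52. Among these other genes COBL, an actin nucleator, gave 31 and 9 counts for PAX6_Ta KO and 561 and 525 for PBX3_Cl KO, against 1 and 1 for Control. ABCA13, a membrane transporter, gave 230 and 240 counts for PAX6_Ta KO and 4 and 0 for PBX3_Cl KO, against 240 and 204 for Control. No member of the list of 58 had differences of that size, and the list was chosen with its values known.

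**Figure D3:**
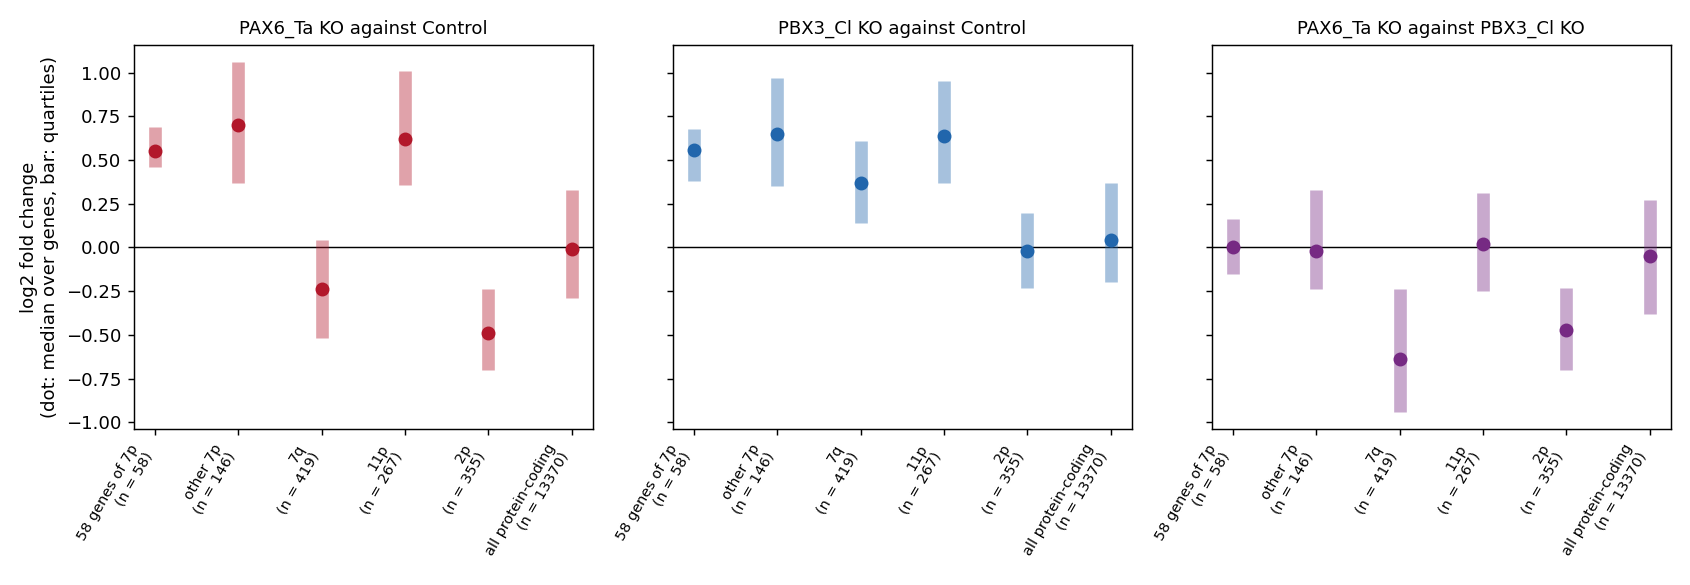
Median (dots) and quartiles (bars) of the log2 fold changes of the 58 genes of 7p, the other tested protein-coding genes of 7p, those of 7q, 11p and 2p, and all tested protein-coding genes, in the 3 comparisons. The 58 genes, which were chosen with these values known, have the shortest bars, with medians of 0.55, 0.56 and 0.00.

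The long arm of the same chromosome did not share these values in PAX6_Ta KO, while in PBX3_Cl KO its median also lay above 0, though lower. The 419 tested protein-coding genes of 7q had a median of -0.24 in PAX6_Ta KO, where 28.2% of them lay above 0, and of 0.37 in PBX3_Cl KO, where 81.4% did. In windows of 5 Mb with at least 5 tested genes, medians on 7p lay between 0.38 and 0.91 in PAX6_Ta KO over 12 windows, and between -0.59 and 0.57 on 7q over 19 windows. The last window of 7p before the centromere gap had a median of 0.69 in PAX6_Ta KO over 12 genes, and the first window of 7q after it had -0.29 over 13 genes. In PBX3_Cl KO the same windows had medians of 0.50 and 0.38. On the whole of 7q, windows in PBX3_Cl KO lay between 0.18 and 0.54, and on 7p between 0.32 and 0.97.

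**Figure D4:**
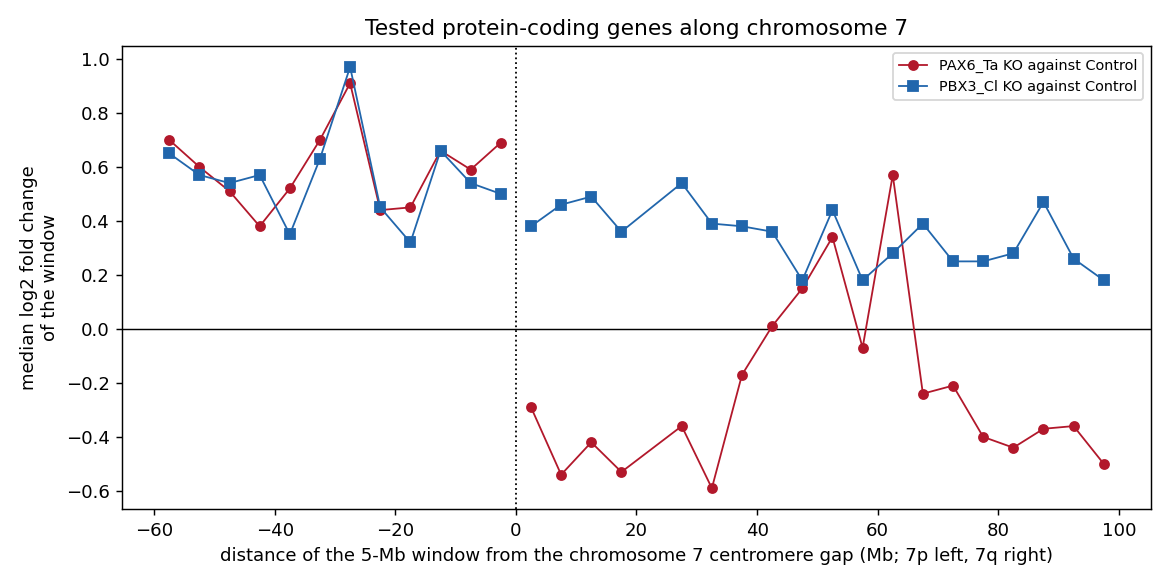
Median log2 fold change against Control of the tested protein-coding genes in 5-Mb windows along chromosome 7, by distance from the centromere gap (dotted line); windows with fewer than 5 tested genes are not drawn. The knockouts run together on 7p, between 0.32 and 0.97, and apart over most of 7q.

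Among 41 chromosome arms, 7p had the highest median in PAX6_Ta KO, 0.65 over its 204 tested protein-coding genes, ahead of 11p at 0.62 and 14q at 0.26. In PBX3_Cl KO it was second at 0.58, between 11p at 0.64 and 7q at 0.37. In PAX6_Ta KO against PBX3_Cl KO its median of -0.01 was 20th of the 41. The short arm of chromosome 2, at -0.49 in PAX6_Ta KO, had with 4q, also at -0.49, the lowest median in that comparison, and 2p stood at -0.02 in PBX3_Cl KO. No test was run on these arm medians, since genes of an arm are not replicates of a clone.

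**Figure D5:**
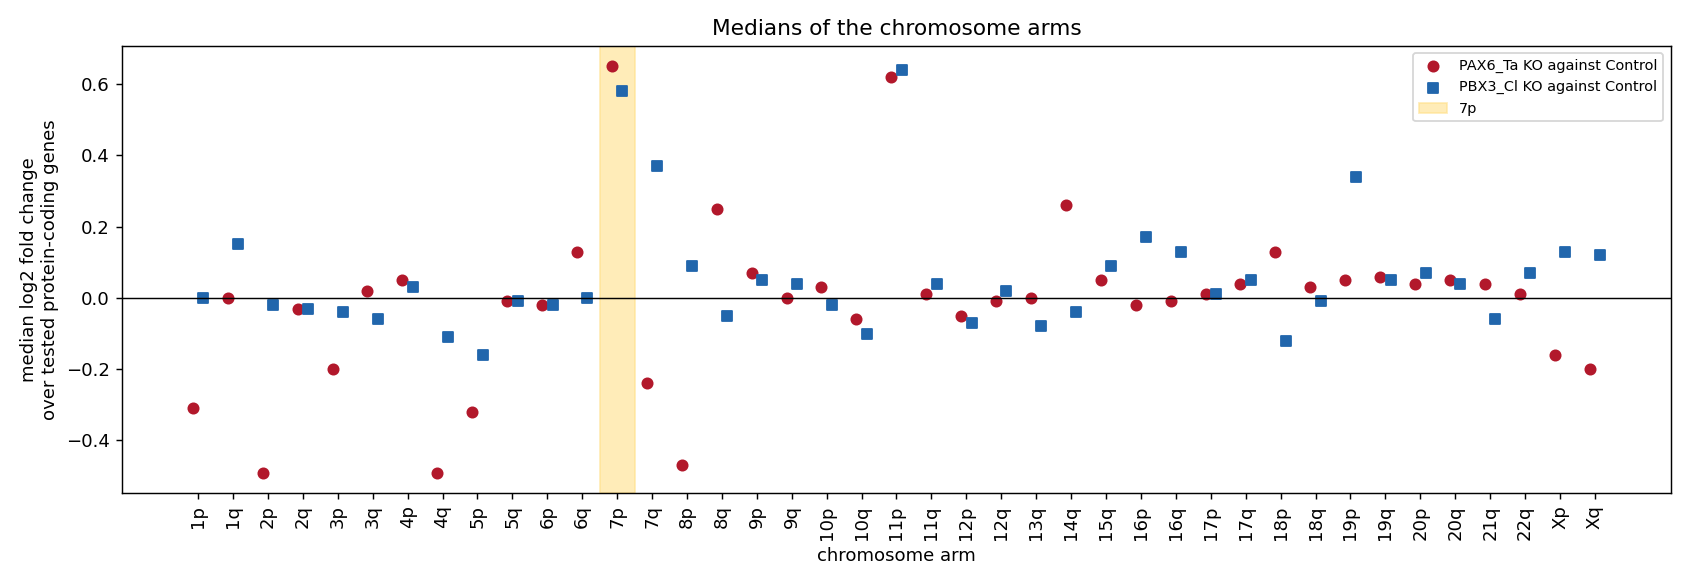
Median log2 fold change against Control over the tested protein-coding genes of each chromosome arm, for PAX6_Ta KO (circles) and PBX3_Cl KO (squares); the shaded column is 7p. In both knockouts 7p and 11p stand above the other arms, at 0.58 to 0.65.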

How the data were processed

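Total RNA of K562 cells had been made into libraries with a stranded kit, 2 for each of PAX6_Ta KO, PBX3_Cl KO and Control. The deposited values were raw read counts per gene. To make them, the authors trimmed adaptors with Cutadapt 3.4, aligned reads with STAR to GRCh37 and counted reads per gene in a Snakemake workflow, and no source used here names the strand setting of that step. A further 4 count columns belong to no labelled sample and were not used. The deposited tables of the authors' DESeq2 comparisons give fold changes with p-values for 4 knockouts and were not used either.

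Of 52088 entries, 17198 had no count in the 6 libraries. Counts were scaled by TMM, filtered with filterByExpr and fitted in 1 model of 6 libraries with edgeR 4.0.16 (R 4.3.3, limma 3.58.1). A gene was called at a Benjamini-Hochberg adjusted p below 0.05 over the 20746 tested entries. Fold changes use edgeR's default prior count, and standard errors come from the quasi-likelihood F statistic. The script was tested on simulated data. Genes were placed by GENCODE annotation on GRCh37, with the arms divided at the centromere gap.

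The members, role groups and gene lists were chosen with earlier results of these data known. Values were given for the 10 members with the highest mean CPM, the 5 lowest and 5 highest members in each comparison, the most and least abundant of each role group, and the 3 lowest and 3 highest other genes of 7p in each knockout, of which COBL and ABCA13 are shown and the others are not reported here. Called members outside this rule and head-to-head pairs were added after their values were seen. Alternatives were other scaling factors, other filters, DESeq2 1.42.0, a replicate block, fits of 2 groups, leaving out each library and leaving out pairs of genes.

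The depth of 45912044 to 60908470 counts limits low genes such as SCRN1 and JAZF1. Replicate libraries differed beyond counting noise, with a chi-square per degree of freedom of 28.0 in PAX6_Ta KO, 86.1 in PBX3_Cl KO and 34.6 in Control, so each was kept as a sample.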

Additional observations from a re-analysis of the deposited data

Results flagged for a closer look

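CDCA7L differed between the knockouts in the same comparison with Control, by 1.32 on the log2 scale in edgeR's quasi-likelihood test of PAX6_Ta KO against PBX3_Cl KO. Its log2 fold changes against Control were 0.06 in PAX6_Ta KO and -1.25 in PBX3_Cl KO. The median of the tested protein-coding genes of 7q differed by -0.64 between PAX6_Ta KO and PBX3_Cl KO. It stands out because its PAX6_Ta KO libraries, at -0.23 and -0.25, both lay below the Control mean and its PBX3_Cl KO libraries, at 0.38 and 0.37, both above it. That difference was not tested.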

How the results depend on the processing

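The median log2 fold change of the 58 genes moved by less than the spread between replicates under all alternatives tried, and no called value of a named gene turned its direction. Of the 32 named genes, 5 not called in PAX6_Ta KO against Control (CDCA7L, HNRNPA2B1, MRPL32, PSMA2 and RALA), 3 not called in PBX3_Cl KO against Control (AIMP2, GET4 and MALSU1) and 12 not called between the knockouts changed sign in at least 1 fit. Leaving out 1 library at a time gave medians of 0.49 to 0.61 in PAX6_Ta KO against Control, 0.44 to 0.63 in PBX3_Cl KO against Control and -0.10 to 0.12 between the knockouts. The last of these changes sign with the library left out, around a value of 0.00. Of 58 genes, 53, 51 and 27 kept 1 direction in all 16 fits in these comparisons. Without ACTB and PPIA the medians were 0.56, 0.56 and 0.01, and without SCRN1 and CDCA7L, an alternative chosen after seeing the data, 0.55, 0.56 and 0.00.

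Counts of called genes depended on the processing. Of genes called higher in PAX6_Ta KO against Control, 13 in the fit reported, there were 21 with upper-quartile factors, where 7.3% of all entries were called higher, 25 in a fit of only the 2 groups compared (9.28%) and 4 to 25 when 1 library was left out (4.21% to 8.81%). In PBX3_Cl KO against Control, where 10 were called higher, leaving out 1 library gave 2 to 18 (3.89% to 6.09% of all entries). Between the knockouts, where 1 was called, there were 2 with upper-quartile factors (5.92%), with library size alone (5.8%) and with the filter of at least 1 CPM in at least 4 libraries (4.55%), and 1 to 2 when 1 library was left out (3.01% to 6.43%). The cause was not tested.

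A replicate block in the fit gave 33, 30 and 2 genes called higher in these comparisons, where 9.78%, 9.26% and 8.06% of all entries were. The labels do not say what the numbers share. The differences between replicate 1 and replicate 2 correlated across genes by 0.389 for the pair of PAX6_Ta KO and Control, by 0.21 for PBX3_Cl KO and Control and by 0.379 for the knockouts. With 2 numbers a group this pairing is a hint from the data, not the design. Depth limits the genes under 1 CPM, SCRN1 and JAZF1, most.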
